A study of Homo sapiens with 2 samples.

Results

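The genes described here encode parts of the mitochondrial respiratory chain, the factors that assemble it, and the translocases that bring proteins into the mitochondrion. No measured value enters the rule that picks them, though the theme was proposed with earlier results of these data known. A gene belonged to the set if its symbol in the platform annotation began with NDUF, SDHA to SDHD, UQCR, COX or COA followed by a digit, ATP5, TIMM or TOMM. This gave 71 genes, read by 74 probe sets, of 14884 named genes on the array. Where a gene had several probe sets, the brightest on average was used.

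RNA came from A549, an established line of human lung adenocarcinoma cells, 24 hours after transfection with a control siRNA (siCONTROL) or an siRNA against p62/SQSTM1 (siP62). Each condition was read on 1 Affymetrix array, so no spread within a group exists and no test was possible. Values are log2 levels after RMA, and a difference is the siP62 value minus the siCONTROL value. A pair of values gives siCONTROL first and siP62 second. Genes that reached 5.35, the median of all named values, in at least 1 array were kept. This left 59 of the 71 genes, beside 7896 of all named genes.

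In the respiratory chain, complexes I to IV pass electrons from NADH and succinate to oxygen, and complexes I, III and IV pump protons across the inner membrane. Complex V, the ATP synthase, uses that proton gradient to make ATP. Nearly all of the proteins involved are made in the cytosol. They enter through the TOM complex of the outer membrane and are then sorted by the TIM23 complex, which takes proteins with a cleavable presequence, or by the TIM22 complex, which inserts carrier proteins into the inner membrane. Small TIM proteins chaperone hydrophobic cargo between the membranes. Mitochondria that lose their membrane potential can be marked with ubiquitin and cleared by autophagy, and p62 is among the receptors that bind ubiquitin-marked cargo.

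The symbol rule reached the parts of this system unevenly. It found no named NDUF subunit of complex I and none of the succinate dehydrogenase subunits SDHA to SDHD. Complex I was represented by 3 assembly factors and complex II by 4. Complex III had 5 genes, complex IV 17 subunit genes and 12 assembly genes, and complex V 3 genes. Import was represented by 23 genes, among them 9 of the TOM complex and 13 of the TIM complexes. A further 3 were noncoding genes that share a symbol with a neighbour, and UQCRBP1 is a pseudogene. Genes without a name in the annotation were not analysed here, so the text describes what the rule found and not the whole chain.

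SQSTM1 had a log2 level of 8.64 with siCONTROL and 7.30 with siP62, which left 39.5% of the control level. All 5 epithelial markers named on the array were kept, with log2 levels from 6.75 to 11.97. Of 5 alveolar type II markers, SFTPB alone was kept (5.66 and 5.30), and SFTPC and NKX2-1 were below the limit in both arrays. The 3 markers of fibroblasts and endothelium on the array ranged from 2.13 to 3.83. CD68, the leukocyte marker that was named on the array, had 8.48 and 8.42.

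Most of the kept genes were slightly higher in the siP62 array. In such bulk RNA, more RNA per cell and more cells holding it cannot be told apart. Of 59, 43 had a higher value, 12 a lower value and 4 the same value, so 72.9% were higher, where 55.4% of all kept genes were higher and 41.8% lower. The median difference was 0.09, against 0.04 over all kept genes. Differences of the 59 genes ran from -0.21 to 0.81, with quartiles of 0.00 and 0.215. Those of all kept genes had a robust SD (scaled median absolute deviation) of 0.222, and the probe sets of a same gene differed among themselves by a median of 0.13. The members' median lay 0.05 above that of all kept genes, a gap that could not be tested.

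Few of these genes differed far. At least 1.3-fold higher (0.379 on the log2 scale) were SDHAF4, UQCRHL, NDUFAF8 and TIMM22, 4 of 59 or 6.78%, near the 7.86% of all kept genes. None was at least 1.3-fold lower, where 5.42% of all kept genes were. SDHAF4 alone differed by 1.5-fold or more, where 3.67% of all kept genes did. With SDHAF4 and TOMM40L left out, whose siCONTROL values were under the limit, 41 of 57 were higher (71.9%), beside 55.5% of the genes with both values at or above it. All kept genes leaned to higher values too. Once their median was subtracted, 36 of the 59 were higher and 21 lower, or 61.0% higher beside 48.7% of all kept genes. COA1, SDHAF1, UQCRC2, TIMM13 and TIMM44, with differences of 0.02 or 0.03, turned below 0 by that step.

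**Figure D1:**
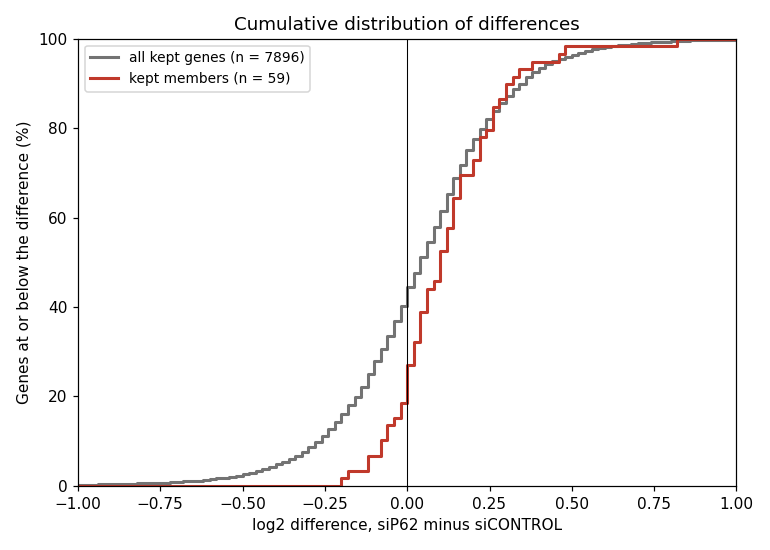
Cumulative share of genes (vertical axis, percent) at or below a given log2 difference, siP62 minus siCONTROL (horizontal axis), for the 59 kept members in red and the 7896 kept genes in grey. At a difference of 0 the red line stands at 27.1% and the grey line at 44.6%, and no member lies below -0.21.

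The assembly factors held both the highest and the lowest difference of the kept members. SDHAF4, which helps the flavoprotein subunit of succinate dehydrogenase join its partner, had 5.29 with siCONTROL and 6.10 with siP62. The difference of 0.81 was the 39th highest of the 7896 kept genes. Its control value lay under the filter limit, so the gene was kept through the siP62 array alone. That value had to be the higher one, and the size of the fold is uncertain. Among members with both values at or above the limit, the highest difference was the 0.48 of UQCRHL, a complex III gene.

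The other complex II assembly factors were close to their control values. SDHAF2, needed to attach the flavin cofactor, had 7.41 and 7.51. SDHAF1, an assembly factor for the iron-sulfur subunit, had 6.78 and 6.80. SDHAF3, which acts on the same subunit, had 5.58 in both arrays. The median over the 4 genes was 0.06, so the group's mean of 0.23 rested on SDHAF4.

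The complex I factors went in both directions. NDUFAF8 had 8.56 with siCONTROL and 9.01 with siP62, a 1.37-fold higher level. TIMMDC1, a membrane-arm assembly factor named for its likeness to the TIM17 family, had 9.87 and 10.15, a difference of 0.28. NDUFAF7, a methyltransferase that modifies a core subunit of complex I, had 6.74 and 6.53. Its -0.21 was the lowest difference of any kept member, and all 3 genes had both values above the limit.

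Complex III was held by its core proteins and small subunits. UQCRC1 and UQCRC2 are the core proteins of the matrix side. UQCRC1 had 8.80 and 8.95, and UQCRC2 had 10.26 and 10.28, differing by 0.02. UQCRB, a small subunit, had 5.45 in both arrays. UQCRH, the hinge protein that lies next to cytochrome c1, had 5.58 and 5.50.

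UQCRHL, a copy of UQCRH, was read separately and stood apart from it. Its level was 8.04 with siCONTROL and 8.52 with siP62, a difference of 0.48, while that of UQCRH was -0.08. The copies are near-identical in sequence, and whether the probes of either could bind the other's RNA was not tested. Without UQCRHL the highest difference in complex III was the 0.15 of UQCRC1.

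Complex IV is cytochrome c oxidase. Several of its small subunits exist as a form found in most tissues and a form largely limited to muscle, testis or other tissues. The widespread forms COX4I1, COX6B1, COX7A2, COX7B and COX8A were above the limit in both arrays. COX6A1 was above it by a probe set at 12.35 and 12.34, but a further one read 2.94 and 2.98, and whether the brighter reads a copy of the gene was not tested. COX6C, also widespread, lay below the limit (4.96 and 5.04). The restricted forms COX4I2, COX6A2, COX6B2, COX7A1, COX7B2 and COX8C were all below it in both arrays, at 2.06 to 5.10. In the TOM complex, TOMM20 was above the limit and TOMM20L, at 3.49 in both arrays, below it. The limit is a filter applied to probe sets of differing brightness, so a place on either side of it does not rank the isoforms.

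Differences of the 10 kept complex IV subunit genes were small, with a median of 0.07. Of these, 6 were higher and 4 lower, near the 55.4% and 41.8% of all kept genes. COX7C had the highest, from 7.42 with siCONTROL to 7.74 with siP62. COX7B had 6.93 and 7.15. COX8A (11.39 and 11.51), COX4I1 (10.47 and 10.56) and COX6B1 (8.28 and 8.37) differed by 0.12, 0.09 and 0.09. These are small subunits that surround the catalytic core.

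COX7A2 had 6.38 and 6.43. The lower values in the siP62 array were those of COX5A (10.67 and 10.60), COX5B (6.81 and 6.77), COX6A1 (12.35 and 12.34) and COX7A2L (5.49 and 5.41), none of them by more than 0.08. COX7A2L is a relative of COX7A2 that joins complexes III and IV into supercomplexes.

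The restricted isoforms below the limit differed in either direction. COX4I2 had 5.03 and 4.62, and COX6A2 had 5.10 and 4.83. COX6B2 had 4.29 and 4.79, COX7A1 3.53 and 3.28, COX7B2 2.52 and 2.43, and COX8C 2.06 and 2.36. Signals this dim may be background, so folds are left out.

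The genes that assemble complex IV were close to their control values. They insert copper and heme into the catalytic subunits and place these in the membrane. Over the 9 kept genes the median difference was 0.09, with 7 higher, 1 lower and 1 equal, where 55.4% of all kept genes were higher. COX20, a chaperone of the copper-binding subunit, had 7.27 and 7.51. COX18, an insertase for that subunit, had 6.21 and 6.42, and COX11, a copper chaperone, had 7.61 and 7.77.

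COA5 had 5.51 and 5.62, COA7 had 6.63 and 6.72, and COA3, which acts on the newly made catalytic subunit, had 9.52 and 9.56. COA1 (7.12 and 7.14), COA6 (6.61 in both arrays) and COA4 (6.77 and 6.75) differed by 0.02 at most. COX14, COX17 and COX19 were below the limit in both arrays, at 4.89 to 5.18, and each differed by 0.04 or 0.08. COX17, which hands copper to this pathway, was among them.

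All 3 complex V genes were higher in the siP62 array, beside 55.4% of all kept genes. ATP5MJ, a small membrane subunit of the ATP synthase, had 6.32 with siCONTROL and 6.62 with siP62. ATP5IF1, the inhibitor that blocks ATP hydrolysis when the proton gradient fails, had 6.29 and 6.54. ATP5MK, a small subunit linked to dimers of the enzyme, had 6.87 and 7.07. Their median was 0.25, and none reached 1.3-fold. The catalytic subunits were not among the named genes of the set.

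**Figure D2:**
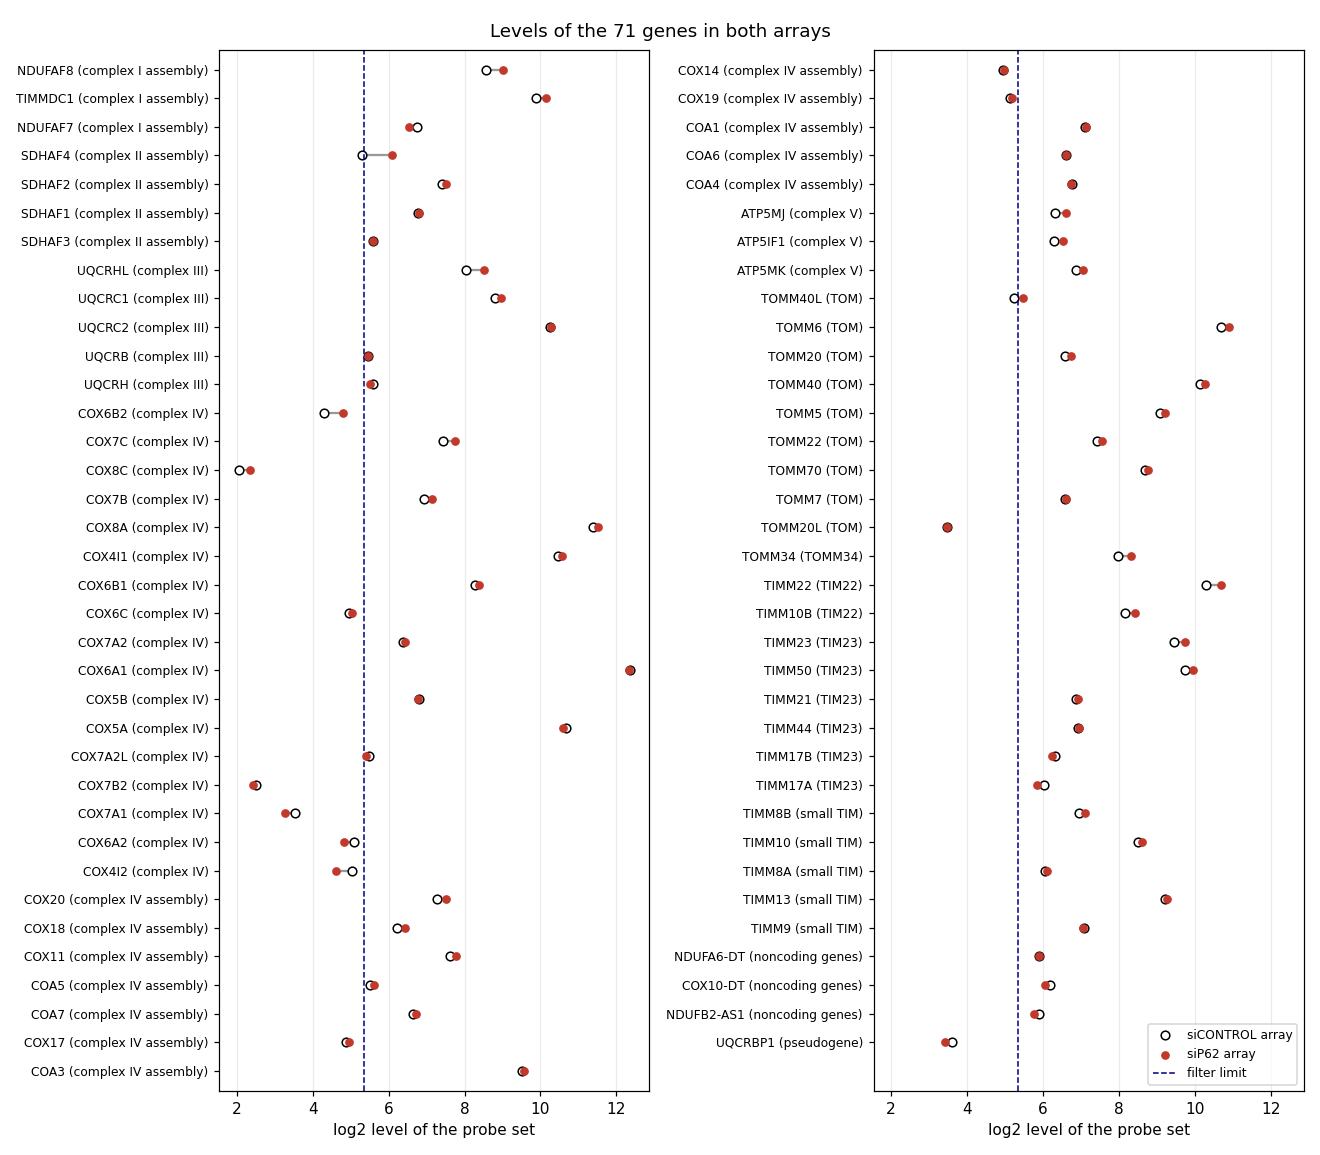
Log2 level (horizontal axis) of each of the 71 genes (vertical axis, with its group) in the siCONTROL array (open points) and the siP62 array (red points), with the filter limit of 5.35 as a dashed line. SDHAF4 crosses the limit from 5.29 to 6.10, and the restricted isoforms of complex IV lie to the left of it in both arrays. Levels of different genes come from different probes and are not comparable with each other.

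Among the import genes 19 of 22 kept had a higher value in the siP62 array, beside 55.4% of all kept genes, with a median difference of 0.135. With both values at or above the limit, 18 of 21 were higher, beside 55.5% of all such genes. After the median of all kept genes was subtracted, 16 of the 22 were higher, beside 48.7% of all kept genes. All 8 kept TOM genes were higher, by 0.04 to 0.25, with a median of 0.14. TOMM40L passed the filter through its siP62 value alone, so that value had to be the higher one. Without it the other 7 were higher by 0.04 to 0.22, also with a median of 0.14. After the subtraction, 7 of the 8 were still higher and TOMM7 was at 0. TOMM40, the channel of the complex, had 10.14 with siCONTROL and 10.28 with siP62. A further probe set of TOMM40 had 8.03 and 8.18, a difference of 0.15 beside 0.14.

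The TOM receptors recognise the targeting signals of incoming proteins. TOMM20, the presequence receptor, had 6.59 and 6.73. TOMM22, which links receptors and channel, had 7.44 and 7.57. TOMM70, the receptor for carrier proteins, had 8.69 and 8.77. The 3 differences were 0.14, 0.13 and 0.08.

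Small TOM subunits stabilise the channel. TOMM6 had 10.68 and 10.90, TOMM5 had 9.08 and 9.22, and TOMM7 had 6.58 and 6.62. TOMM7 is also required to hold the kinase PINK1 at the outer membrane. TOMM40L, a relative of TOMM40, had 5.23 and 5.48 and was kept through the siP62 array alone. TOMM34, a cytosolic cochaperone of preproteins and no part of the complex, had 7.98 and 8.32, a difference of 0.34.

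The TIM22 carrier pathway had the highest median difference of the inner membrane translocases, 0.32. TIMM22, its channel, had 10.30 and 10.68, a difference of 0.38 that lay just inside the 1.3-fold limit and fell to 0.34 once the median was subtracted. TIMM10B, which docks the small chaperones on that channel, had 8.17 and 8.43. Both genes were higher, but they are the only members of this group.

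The TIM23 presequence pathway was mixed, with 4 genes higher and 2 lower, beside 55.4% and 41.8% of all kept genes. Its median of 0.04 was the same as that of all kept genes. With a loess curve subtracted the TIM23 median turned to -0.0029. TIMM23, the channel protein, had 9.45 and 9.75, and TIMM50, the receptor that passes presequences to it, had 9.75 and 9.95. TIMM21, which bridges to TOM, had 6.88 and 6.93, and TIMM44, the anchor of the import motor, had 6.93 and 6.96. TIMM17A and TIMM17B are alternative partners of TIMM23 and were the lower genes. TIMM17A had 6.04 and 5.85, and TIMM17B had 6.31 and 6.24. TIMM23 has a near-identical copy in the genome, and its probes were not checked against it.

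Small TIM chaperones differed little, with a median of 0.06 over 5 genes. TIMM8B had 6.95 and 7.11, TIMM10 had 8.51 and 8.62, and TIMM8A, the gene of deafness-dystonia syndrome, had 6.05 and 6.11. TIMM13, the partner of TIMM8A, had 9.23 and 9.26. TIMM9, the partner of TIMM10, had 7.09 and 7.06. The partners TIMM9 and TIMM10 thus differed in opposite directions, by 0.11 or less.

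**Figure D3:**
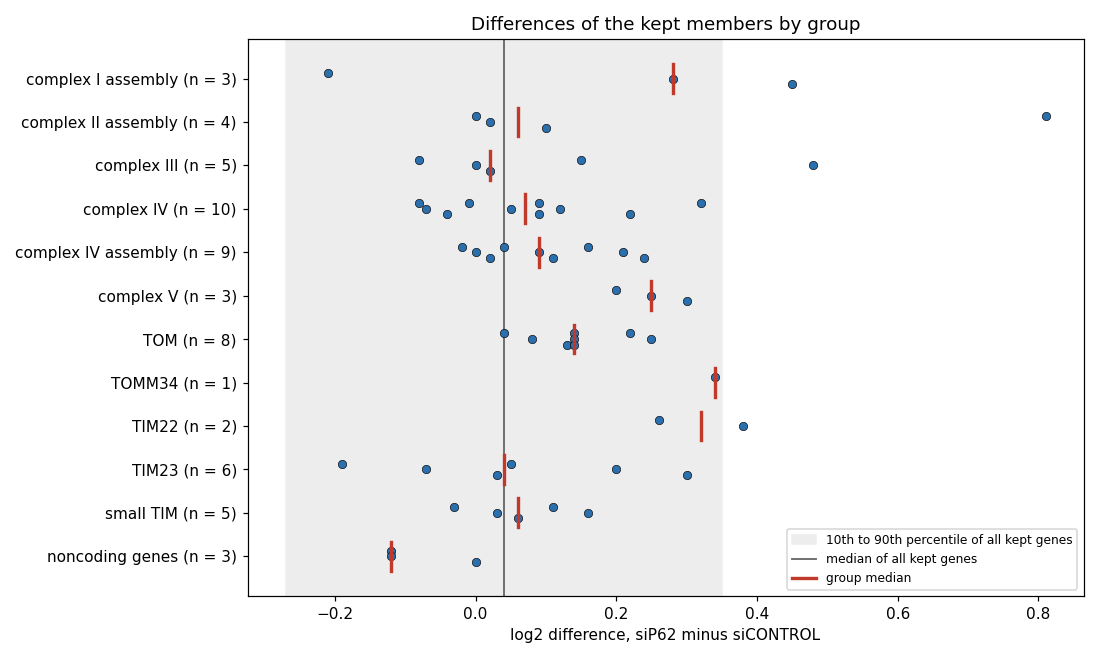
Log2 difference, siP62 minus siCONTROL (horizontal axis), of the 59 kept genes by group (vertical axis, n in brackets). Points are genes, red bars are group medians, the grey line is the median of all kept genes (0.04) and the grey band runs from their 10th to their 90th percentile (-0.27 to 0.35). SDHAF4 (0.81), UQCRHL (0.48), NDUFAF8 (0.45) and TIMM22 (0.38) lie to the right of the band and no gene lies to its left.

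The noncoding genes caught by the symbol rule were not higher. COX10-DT, transcribed away from the start of COX10, had 6.19 and 6.07. NDUFB2-AS1, an antisense gene of NDUFB2, had 5.89 and 5.77. NDUFA6-DT had 5.89 in both arrays by its main probe set, and a further one, below the limit, had 3.83 and 3.41. The pseudogene UQCRBP1 had 3.61 and 3.43 and was not kept. The protein-coding genes next to which these noncoding genes lie were not among the named members.

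Promoter letters offered a feature that the choice of genes had not used. Promoters of nuclear genes for the respiratory chain are known for binding sites of NRF1 (nuclear respiratory factor 1, distinct from NRF2, the antioxidant regulator bound by KEAP1), of the ETS factor GABP and of YY1. RefSeq's promoter table (GRCh38.p14) held 62 of the 71 genes, and the 250 bases before each listed start were searched on both strands. The letters CCGGAAG, the core of ETS factor sites, were found in 23 of the 62 genes (37.1%), beside 10.2% of all 27305 genes in the table and 13.98% of its protein-coding genes. The NRF1 letters GCGCATGC were found in 7 genes (11.3%), beside 3.22% of all genes and 4.34% of protein-coding genes. The YY1 letters AAGATGGCG were in 3 genes (4.84%), beside 0.784% of all genes and 0.972% of protein-coding genes. The 3 were the noncoding COX10-DT and NDUFA6-DT, and TOMM40L, so none was a protein-coding gene of the respiratory chain. The protein-coding neighbours COX10 and NDUFA6 were not among the members, so this count does not cover their promoters.

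The antioxidant response letters TGACNNNGC were found in 5 genes (8.06%), below the 13.2% of all genes. The Sp1 letters GGGCGG were in 42 genes (67.7%), beside 46.2% of all and 62.1% of protein-coding genes. Motifs can overlap each other, as an ETS and the NRF1 match of SDHAF2 do by a shared base, and a match is a description of letters, not a binding site. COX5B, COX6A1, COX17 and SDHAF2 held both the ETS and the NRF1 letters. Among 8 TOM genes with a window, TOMM20, TOMM6 and TOMM70 held the ETS letters, TOMM7 the NRF1 letters and TOMM40L the YY1 letters.

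The windows below show these matches in 4 of the 8 kept TOM genes, in TIMM10B, in a pair of genes with both kinds of letters, and in SDHAF4, the gene of the highest difference, which holds none of the 4 marked motifs. Each is written 5′ to 3′ along the gene's strand and ends at the base before the start. Capitals mark ETS, NRF1, YY1 and antioxidant response letters, and Sp1 letters are not marked.
TOMM20, chr1:235128838-235129087, minus strand: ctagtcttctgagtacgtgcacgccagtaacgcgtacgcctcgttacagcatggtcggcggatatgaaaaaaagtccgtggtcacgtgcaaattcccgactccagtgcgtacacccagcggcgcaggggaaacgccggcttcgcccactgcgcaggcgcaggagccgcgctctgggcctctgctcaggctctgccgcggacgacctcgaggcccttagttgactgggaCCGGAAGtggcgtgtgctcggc
TOMM6, chr6:41787444-41787693, plus strand: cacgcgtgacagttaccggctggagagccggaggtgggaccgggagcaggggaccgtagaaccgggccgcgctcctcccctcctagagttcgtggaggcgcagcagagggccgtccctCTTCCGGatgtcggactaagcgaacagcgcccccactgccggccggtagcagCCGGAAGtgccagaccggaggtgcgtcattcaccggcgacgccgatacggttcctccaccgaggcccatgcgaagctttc
TOMM70, chr3:100401090-100401339, minus strand: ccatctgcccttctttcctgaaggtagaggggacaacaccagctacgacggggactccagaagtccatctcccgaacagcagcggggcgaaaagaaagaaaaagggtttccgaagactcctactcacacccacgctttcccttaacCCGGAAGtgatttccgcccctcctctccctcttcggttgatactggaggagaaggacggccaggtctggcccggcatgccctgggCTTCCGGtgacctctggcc
TOMM7, chr7:22822850-22823099, minus strand: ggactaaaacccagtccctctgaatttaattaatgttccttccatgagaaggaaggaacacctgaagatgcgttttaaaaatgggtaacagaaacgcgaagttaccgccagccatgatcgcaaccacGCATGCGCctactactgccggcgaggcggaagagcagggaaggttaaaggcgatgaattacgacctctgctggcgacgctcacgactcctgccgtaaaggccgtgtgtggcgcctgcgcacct
TIMM10B, chr11:6481251-6481500, plus strand: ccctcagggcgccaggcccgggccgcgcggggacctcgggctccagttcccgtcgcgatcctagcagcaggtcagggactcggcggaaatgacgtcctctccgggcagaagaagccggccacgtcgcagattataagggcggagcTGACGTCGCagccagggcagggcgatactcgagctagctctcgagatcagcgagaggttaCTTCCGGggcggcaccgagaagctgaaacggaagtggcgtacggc
COX5B, chr2:97645812-97646061, plus strand: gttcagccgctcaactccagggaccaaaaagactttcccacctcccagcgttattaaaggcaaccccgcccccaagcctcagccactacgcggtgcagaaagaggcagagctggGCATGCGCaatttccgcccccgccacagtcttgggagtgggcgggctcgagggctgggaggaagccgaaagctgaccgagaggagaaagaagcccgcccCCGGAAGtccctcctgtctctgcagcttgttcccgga
SDHAF2, chr11:61429874-61430123, plus strand: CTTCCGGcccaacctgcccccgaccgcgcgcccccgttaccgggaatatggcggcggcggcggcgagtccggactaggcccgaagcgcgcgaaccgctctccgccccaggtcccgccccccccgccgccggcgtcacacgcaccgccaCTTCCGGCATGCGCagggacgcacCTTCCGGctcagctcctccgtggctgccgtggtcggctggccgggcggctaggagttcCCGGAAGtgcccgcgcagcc
SDHAF4, chr6:70566680-70566929, plus strand: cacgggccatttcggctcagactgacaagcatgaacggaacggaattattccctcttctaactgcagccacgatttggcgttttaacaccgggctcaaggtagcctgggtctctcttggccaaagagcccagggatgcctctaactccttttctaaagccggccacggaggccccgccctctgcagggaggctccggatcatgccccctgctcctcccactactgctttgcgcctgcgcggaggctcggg

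In the TOMM20 window the ETS letters end 16 bases before the start, and in the TOMM70 window a reverse-strand match ends 13 bases before it. TOMM6 held matches on either strand, ending 126 and 74 bases before the start. SDHAF2 held 4 ETS matches and COX5B held 1. The kept genes with the ETS letters had a median difference of 0.105 (22 genes) and those without 0.055 (32 genes). With the NRF1 letters the median was 0.015 over 6 genes, and without them 0.09 over 48. The gaps between these medians were not tested.

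Other mitochondrial genes gave a setting for these values. Of all kept genes, 55.4% were higher and 41.8% lower, with a median of 0.04. Among 29 kept subunits, ubiquinone enzymes and assembly factors outside the symbol rule, 14 were higher and 13 lower. Their median was 0.00, while the members' median was 0.09. DMAC2, a complex I assembly factor, had the highest difference, from 9.44 to 9.93. ETFDH, which feeds electrons to ubiquinone, had the lowest, from 6.37 to 5.93. CYC1, the heme-bearing cytochrome c1 of complex III, had 9.49 in both arrays. The complex III factor LYRM7 had 5.75 and 5.35 and UQCC2 had 9.04 and 8.70, while UQCC1 had 5.74 and 6.09, so factors of the same complex went both ways.

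Import factors outside the rule were higher in 13 of 19 kept genes, beside 55.4% of all kept genes. Their median was 0.09, beside 0.04. CHCHD4, the oxidoreductase of the intermembrane space import pathway, had 5.20 and 5.60, with its control value under the limit. HSPA9, the motor chaperone of the matrix, had 11.44 and 11.60, and the processing peptidase genes PMPCA and PMPCB differed by 0.09 and -0.09. SAMM50, which inserts barrel proteins into the outer membrane, had 8.23 and 7.99. AFG3L2, a protease of the inner membrane, was the lowest, at 8.46 and 8.08.

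Of the regulators of mitochondrial biogenesis, 5 were kept, and they differed by -0.08 to 0.15. NRF1 had 6.86 and 6.78, ESRRA had 6.78 and 6.83, and YY1 had 7.56 and 7.71. Genes that maintain or transcribe mitochondrial DNA were higher in 6 of 7, beside 55.4% of all kept genes, with a median of 0.11. DGUOK, a deoxyguanosine kinase, had 7.54 and 7.96, and TWNK, the helicase of mitochondrial DNA, had 7.27 and 7.65. MTERF2 was the lower gene, at 5.45 and 5.28. It passed the filter through its siCONTROL value alone, so its siP62 value had to be the lower one.

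Citrate cycle and pyruvate genes had a median of 0.02, with 7 of 11 higher, beside 55.4% of all kept genes. OGDH was the highest (9.02 and 9.33) and PC, pyruvate carboxylase, the lowest (7.80 and 7.49). Genes of cristae, fusion and fission had a median of -0.015 over 18. Of these, 8 were higher and 9 lower, beside 55.4% and 41.8% of all kept genes. PHB2 had 9.04 and 9.39, and APOO, a subunit of the cristae junction complex, had 7.15 and 6.70. Carriers and channels had a median of 0.04 over 7 genes, with VDAC2 the highest (6.56 and 6.73) and MCU, the calcium uniporter, the lowest (9.25 and 9.07). None of the 15 genes of the mitochondrial genome that were looked for was named, so the subunits made inside the organelle were not analysed here.

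**Figure D4:**
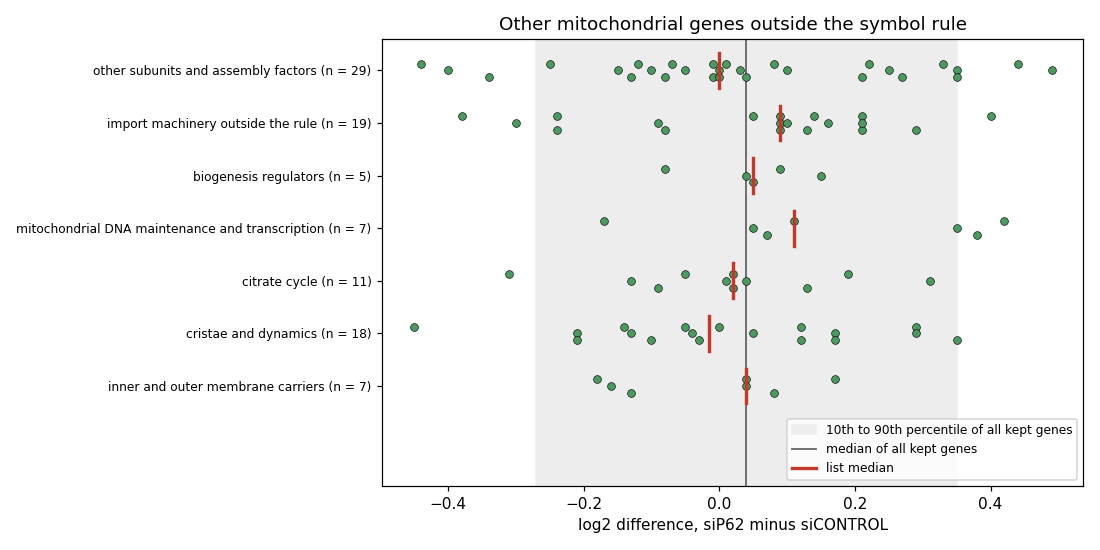
Log2 difference, siP62 minus siCONTROL (horizontal axis), of kept mitochondrial genes outside the symbol rule, by list (vertical axis, n in brackets). Points are genes, red bars are list medians, and the grey line and band are the median and the 10th to 90th percentile of all kept genes. List medians run from -0.015 to 0.11, and most points lie within the band.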

How the data were processed

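RNA of A549 cells was hybridised to 1 siCONTROL and 1 siP62 array, from 100 ng of total RNA, per the labels' protocols. The deposited table holds log2 values of 48226 probe sets on each array, made with RMA and Transcriptome Analysis Console 4.0.2.15, per the submitters' processing notes. RMA usually makes array distributions alike, so a shift of all genes in the cells would not be seen. The deposited columns still differed slightly, with medians over all probe sets of 4.07 (siCONTROL) and 4.02 (siP62). Quantile normalizing them again moved the median difference of all kept genes from 0.04 to 0.005. That of the members moved from 0.09 to 0.055. The submitters' genome build was not given in the sources used here.

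Genes were named from the platform annotation, which gave 16098 probe sets 1 symbol. All 71 members matched RefSeq's gene table. The probe set with the highest mean stood for a gene, and genes under 5.35 in both arrays were left out. Differences, counts past 1.3-fold and 1.5-fold and medians were computed with pandas 2.3.3 and set beside those of all kept genes. With 1 array per group no test was run, and precision is limited by the number of arrays. The functions were tested on simulated data.

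The members, the lists and the motifs were chosen with earlier results of these data known. The promoter windows shown were picked after the values were seen. All members are named in the text, more than the highest and lowest of each group that the naming rule asked for. The highest and lowest kept gene of each other list are named by that rule. Further genes illustrate those lists. The alternatives were other centring, quantile normalization, filters, the mean over probe sets, subunits alone and the mean, and, chosen after seeing the data, the limit required of both arrays. In the symbol grouping, noncoding genes were set apart after the symbols were read.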

Additional observations from a re-analysis of the deposited data

How the results depend on the processing

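The median difference of the kept genes was above 0 under all 9 alternatives, between 0.05 with the median of all kept genes subtracted and 0.125 with the filter at the 70th percentile (6.67). That stricter limit left 34 of 40 genes higher (85%), beside 57.7% of all genes that passed it. Quantile normalizing the columns again left 37 of 59 higher (62.7%), beside 50.6% of all genes kept then. The count of genes at least 1.3-fold higher ranged from 3 to 5, and TIMM22 dropped out under each centring. Without a filter, 1 gene, COX4I2, was at least 1.3-fold lower, where none was with it. With the filter at the 70th percentile 0 genes differed by 1.5-fold, since SDHAF4 was left out, where 1 did otherwise. Medians of small groups moved more. That of complex III was 0.02, -0.02 with the median of all kept genes subtracted and 0.15 with the filter at the 70th percentile. That of TIM23 was 0.04, -0.0029 with a loess curve subtracted and 0.125 with that filter, and that of all TIM genes was 0.06 and 0.135 with it. None of 334 values of single genes under the alternatives moved by more than 0.13. Little movement was possible, since a filter cannot change a gene's difference and few members had several probe sets. NDUFA6-DT, whose probe sets differed by 0 and -0.42, was not kept under the mean over probe sets and has no value there. The requirement that both arrays reach the limit was added after the data were seen and left the median of the kept genes at 0.09 and that of TOM at 0.14. No paired analysis was possible because each group held 1 array. No replicate could be left out for the same reason. Values near the limit of 5.35 carry no detection call, and differences of this size could not be separated from the spread between arrays.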
